A study of Mus musculus with 4 samples.

Results

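The genes described here encode the proteins of the cytosolic ribosome, the particle that translates nuclear-encoded messages. They were chosen by symbol: Rpl or Rps followed by a number and at most one of the letters a, x, y and l, together with Rplp0, Rplp1, Rplp2 and Rpsa. The rule found 82 of the 24493 gene symbols in the table, 50 of the large subunit and 32 of the small subunit. RefSeq lists 81 of the 82 as protein coding and Rps4l as a transcribed pseudogene, and they lie on 19 chromosomes, with 14 on chromosome 7. Of the 82, 79 had at least 1 TPM in all 4 libraries and were tested, and Rpl3l, Rpl10l and Rpl32l were not. TPM is the share of a transcript in its library after correction for length, so levels can be compared between genes.

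Bulk RNA sequencing compared the Hep_3D group, hepatocytes in 3D culture (n = 2), with the Bil_2D group, biliary cells derived from hepatocytes and kept in 2D culture (n = 2). Both groups came from cultured C57BL/6 mouse hepatocytes without treatment, and the same clones, 15C7 (replicate 1) and 19H5 (replicate 2), supplied a library to each. All hepatocyte libraries were 3D and all biliary libraries 2D, so cell state and culture format cannot be told apart, and each clone is represented by one library per state. The labels do not say that the clones came from separate animals, so p-values measure only the spread between these libraries.

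Ribosomal protein genes are housekeeping genes whose products assemble in the nucleolus with ribosomal RNA, in near equal numbers per ribosome. Their messages are short, abundant and stable, and most begin with a cytosine followed by a run of pyrimidines, the terminal oligopyrimidine (TOP) sequence through which the mTORC1 kinase and the RNA-binding protein LARP1 control their translation. In the liver, ribosome production is known to rise with growth and regeneration, while differentiated hepatocytes devote much of their messenger RNA to secreted plasma proteins.

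Every library summed to 1000000 TPM and its sequencing depth was unknown. The 12 hepatocyte markers summed to 74871 and 67460 TPM in Hep_3D libraries, against 2061 and 460.3 TPM in Bil_2D libraries. The biliary keratin Krt19 had 1.12 and 15.9 TPM in Hep_3D libraries, against 752 and 1615 TPM in Bil_2D libraries, as labelled. The biliary list as a whole was mixed. Of its 9 genes tested, 5 were called lower in Hep_3D and 1 higher in TPM, by the limma test described below. On the median-of-ratios scale, also described below, 3 were called lower and 2 higher. Over all genes 51.9% were lower and 6.8% higher in TPM, and 9.54% and 11.9% on the second scale. The 12 biliary markers as a list summed to 13169.7 and 9461 TPM in Hep_3D libraries, against 5816 and 9366 TPM in Bil_2D libraries, because Spp1 alone had 13093 and 9284 TPM in the first and 4176 and 6092 TPM in the second. The 12 fibroblast and stellate markers summed to 183 and 4.14 TPM in Hep_3D libraries, against 6.32 and 1.45 TPM in Bil_2D libraries, with 178 TPM of Dcn in Hep_3D replicate 1. The 9 endothelial markers summed to at most 0.409 TPM in any library, with Lyve1, Clec4g and Emcn at 0 in all, the 10 macrophage and leukocyte markers to at most 14.3 TPM, with Cd3e at 0 in all, and the 7 red blood cell markers to at most 8.09 TPM, with Hba-a2 and Hbb-bs at 0 in all.

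The ribosomal protein messages together took a smaller share of the transcripts in the hepatocyte cultures. They summed to 8.51% and 8.56% of all TPM in Hep_3D libraries, against 16.5% and 18.7% in Bil_2D libraries. The groups did not overlap. The mean was 8.53% ± 0.0348 in Hep_3D and 17.6% ± 1.56 in Bil_2D (SD, n = 2 each), and the two-sided exact permutation p was 0.333, the smallest that 2 libraries against 2 can give. In bulk samples, fewer cells of a type and less RNA per cell cannot be told apart. A share also depends on what else is in the library: after the 50 most abundant other genes were left out and the rest rescaled, the members took 15.3% and 15.99% in Hep_3D libraries, against 19.1% and 21.9% in Bil_2D libraries (exact permutation p 0.333). The groups still did not overlap, but they lay closer together.

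**Figure D1:**
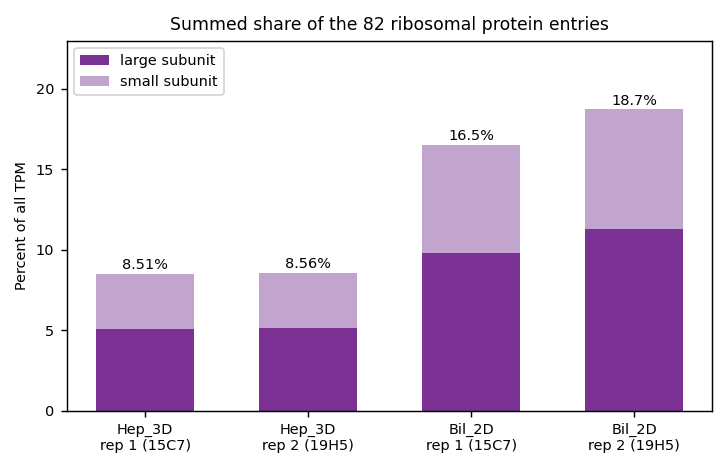
Summed share of the 82 ribosomal protein entries in each library, in percent of all TPM, split into large subunit (dark) and small subunit (light). The bars reach 8.51% and 8.56% in Hep_3D libraries and 16.5% and 18.7% in Bil_2D libraries, each bar being 1 library.

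Both subunits were lower in Hep_3D, and the ratio between them overlapped between the groups. Large subunit members summed to 5.05% and 5.14% of TPM in Hep_3D libraries, against 9.82% and 11.3% in Bil_2D libraries. Small subunit members summed to 3.46% and 3.42% in Hep_3D libraries, against 6.70% and 7.42% in Bil_2D libraries. In both cases the Hep_3D libraries were the lower, without overlap (exact permutation p 0.333 each). The ratio of summed large to summed small subunit TPM, which no scaling of libraries can move, was 1.46 and 1.504 in Hep_3D libraries, against 1.47 and 1.52 in Bil_2D libraries. These ranges overlapped (exact permutation p 0.667), and the mean log2 ratio differed by −0.0135, less than the SD of 0.0300 between Hep_3D libraries and of 0.0396 between Bil_2D libraries. In each state the ratio was higher in clone 19H5.

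The order of abundance among the members was nearly the same in all libraries. Across the 79 tested genes, Pearson's r of log2 TPM between pairs of libraries lay between 0.981 and 0.993, a description across genes that share each library. The most abundant member was Rplp1, a protein of the lateral stalk through which the large subunit recruits elongation factors, with 6169 and 5666 TPM in Hep_3D libraries, against 12249 and 13669 TPM in Bil_2D libraries. The groups did not overlap. Rplp1 held 7.25% and 6.62% of the members' own TPM in Hep_3D libraries, against 7.42% and 7.30% in Bil_2D libraries, so that as a share of the members it moved little. The other 9 of the 10 most abundant were Rpl41, Rpl38, Rps21, Rps2, Rps28, Rpl28, Rplp2, Rps12 and Rps18, and the 10 together held 30.96% and 29.7% of the members' TPM in Hep_3D libraries, against 32.2% and 31.7% in Bil_2D libraries. The median of the 79 was 937 and 913 TPM in Hep_3D libraries, against 1797 and 2109 TPM in Bil_2D libraries. Members over 1000 TPM numbered 37 and 36 of 79 in Hep_3D libraries, against 61 and 64 in Bil_2D libraries.

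**Figure D2:**
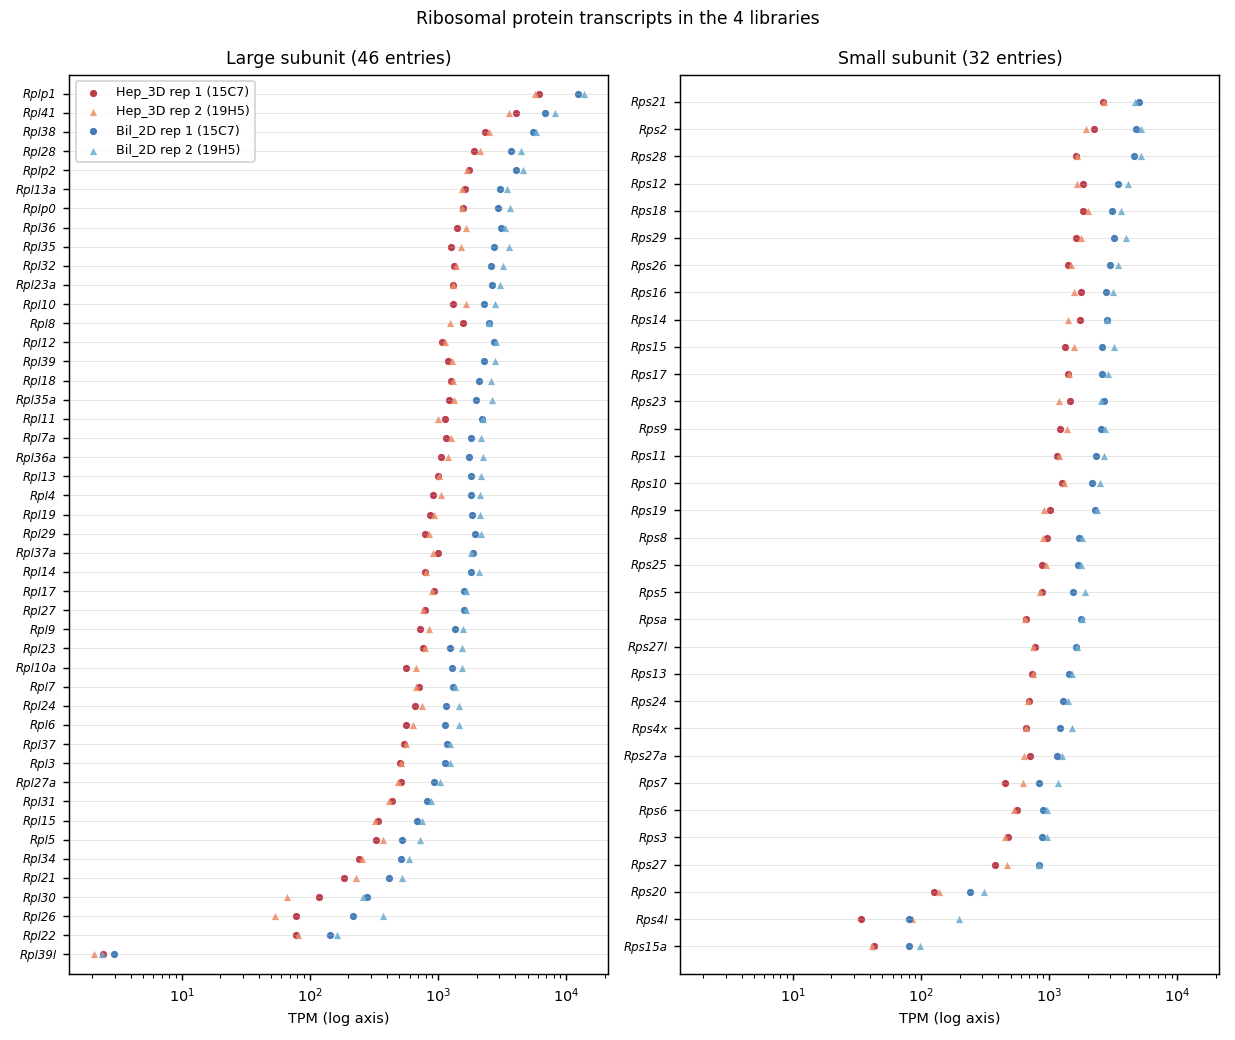
TPM (log axis) of 78 of the 79 tested ribosomal protein genes, large subunit on the left and small subunit on the right, ordered by mean level, with 1 point per library (red shades Hep_3D, blue shades Bil_2D, circles clone 15C7, triangles clone 19H5). The Hep_3D points lie left of the Bil_2D points for 76 of these 78 genes, and Rpl39l, at 2 to 3 TPM, lies apart from all others.

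The start sequences that the TOP rule refers to were read from RefSeq promoters (GRCm38.p6), which held 61 of the 82 members. A pyrimidine run was taken as 5 or more C or T in a row, opening with C within 5 bases of an annotated start. It was present for 29 of 61 member genes (47.5%), against 23.5% of 9510 other tested genes in the same table. The ETS motif CCGGAAG, on either strand of the 300 bases around the start, was present for 41.0% of member genes against 20.4% of the other tested genes, the YY1 motif AAGATGGC for 8.2% against 5.48%, the E-box CACGTG for 9.84% against 12.1%, and TATAAA for 11.5% against 9.04%. Annotated starts can be off by several bases, so a missing run says only that none opens within 5 bases of the annotated start. The sequences below run from 10 bases before the annotated start to 20 bases from it, 5′ to 3′ on the gene's strand, with the run in capitals. Rpl38, Rps27, Rplp2 and Rpl22l1 are shown as members or relatives that hold a run. Rps28, Rpsa and Rpl26 are among those that departed most from the other members, and Rpl36al and Rpl36a form the pair with the clearest shift. None of these holds a run by this rule, though Rpl36al and Rpl36a have 5 pyrimidines opening with C further from the start. Of the other departing members, Rpl39l had no run and is not shown, and Rpl30 had no RefSeq start.
Rpl38: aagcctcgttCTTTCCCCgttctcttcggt
Rps27: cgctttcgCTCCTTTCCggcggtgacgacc
Rplp2: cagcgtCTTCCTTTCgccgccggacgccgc
Rpl22l1: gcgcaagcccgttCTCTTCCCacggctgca
Rps28: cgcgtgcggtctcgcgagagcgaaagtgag
Rpsa: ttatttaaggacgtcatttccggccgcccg
Rpl26: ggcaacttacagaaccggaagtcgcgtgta
Rpl36al: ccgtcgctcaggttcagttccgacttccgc
Rpl36a: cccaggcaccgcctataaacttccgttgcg

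These windows lie at chr11:114668570-114668599 on the plus strand for Rpl38, chr3:90213629-90213658 on the minus strand for Rps27, chr7:141447641-141447670 on the plus strand for Rplp2 and chr3:28805498-28805527 on the plus strand for Rpl22l1. Those without a run lie at chr17:33824543-33824572 on the minus strand for Rps28, chr9:120127756-120127785 on the plus strand for Rpsa, chr11:68901556-68901585 on the plus strand for Rpl26, chr12:69184048-69184077 on the minus strand for Rpl36al and chrX:134585644-134585673 on the plus strand for Rpl36a. Among tested members with a RefSeq start, the 28 with a run had a median log2 fold change of −0.20 on the median-of-ratios scale described below, and the 30 without one had −0.16. These medians were close, and were not tested.

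Gene by gene on the TPM scale, 77 of the 79 tested members were lower in Hep_3D and 0 were higher (limma on log2(TPM + 1), Benjamini-Hochberg adjusted p under 0.05 over 12336 genes; 77 members and 8082 of all genes had an unadjusted p under 0.05). Over all genes tested, 51.9% were called lower and 6.8% higher on this scale (58.7% in either direction), so most of the transcriptome had a lower TPM in Hep_3D. The median log2 fold change of the members was −1.01, with a range of −2.11 to −0.18, beside a median of −0.73 over all genes. Large subunit members (46 of 47 lower, median −1.03) and small subunit members (31 of 32 lower, median −0.98) had close medians. The 2 not called were Rpl39l and Rps4l. The groups did not overlap for 77 of 79 members, with Hep_3D the lower, beside 71.9% of all genes. The count rested on the number of libraries: it was 38 without Hep_3D replicate 1, 32 without Hep_3D replicate 2, 55 without Bil_2D replicate 1 and 18 without Bil_2D replicate 2, with 79 of 79 below 0 in each clone taken alone.

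The TPM of a gene falls when other genes take more of the library, so the members were also placed on a median-of-ratios scale, in which TPM is divided by a factor that sets the median gene equal between libraries. The factors were 0.769 and 0.741 in Hep_3D libraries, against 1.37 and 1.30 in Bil_2D libraries, and with them the median gene's log2 fold change was −0.02, in place of −0.73 in TPM. Relative to the median gene, 1 of 79 members, Rpsa, was lower in Hep_3D and 0 were higher by limma, beside 9.54% of all genes called lower and 11.9% higher (21.4% in all). At an unadjusted p under 0.05 there were 8 of 79 members, beside 4832 of the 12336 genes, and all 8 were lower: Rpsa, Rps28, Rpl26, Rpl12, Rpl29, Rplp2, Rps19 and Rpl14. The members' median was −0.20, beside −0.02 over all genes, and 72 of 79 lay below 0. Large subunit members had a median of −0.22 and small subunit members −0.17. The groups did not overlap for 39 members that were lower in Hep_3D and for 1 that was higher, beside 34.7% and 33.6% of all genes.

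**Figure D3:**
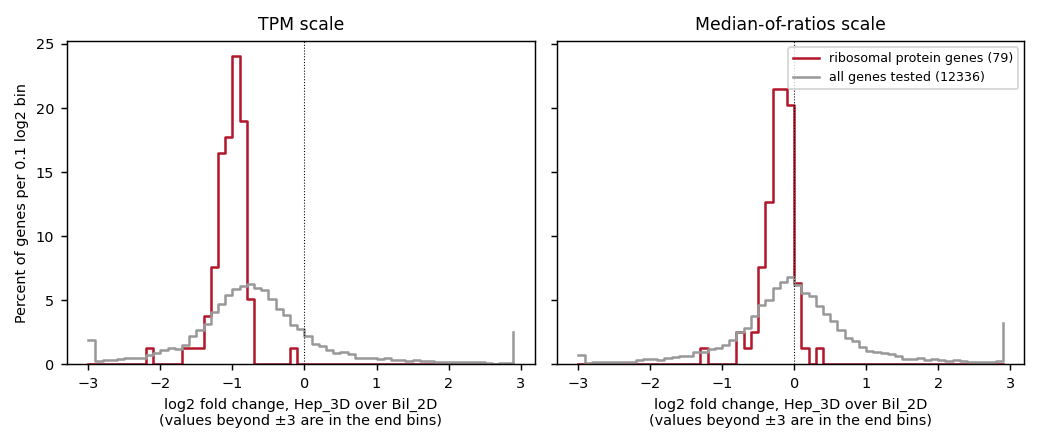
Distribution of log2 fold changes (Hep_3D over Bil_2D) on the TPM scale (left) and the median-of-ratios scale (right) for the 79 ribosomal protein genes (red) and all 12336 genes tested (grey), as the percent of genes in each bin of 0.1. The members form a narrow peak with a median of −1.01 on the left and −0.20 on the right, inside the wide distribution of all genes.

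The fold changes of the members spread less than those of other abundant genes. Among the 69 members with a mean of at least 500 TPM, the log2 fold changes on the median-of-ratios scale had an SD of 0.172 around a median of −0.17. Among the 213 other genes at that level the SD was 3.75 around a median of 0.21. These 213 passed on their mean over the 4 libraries, which admits genes abundant in only 1 state. Alb, for example, had 15033 and 11216.5 TPM in Hep_3D libraries, against 140 and 18.4 TPM in Bil_2D libraries. Such genes widen the SD, so the contrast does not show that the members were unusually tight. These SDs are descriptions across genes, which are not independent replicates. Within the members, the log2 fold change showed little relation to level (Spearman's rho −0.0783, n = 79) or to coding length (rho 0.0661, n = 78), and level fell slightly with transcript length (rho −0.285, n = 79).

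The members' medians had the same direction in both clones, with different sizes. On the median-of-ratios scale the median Hep_3D minus Bil_2D difference was −0.09 in clone 15C7, with 58 of 79 members below 0, and −0.29 in clone 19H5, with 76 of 79 below 0. The medians over all genes were −0.005 in 15C7 and −0.02 in 19H5. For 18 of the 79 members the sign differed between the clones. The shares of all genes for these sign counts are not given here. On the TPM scale the medians were −0.92 and −1.09. The members' values summed on the median-of-ratios scale were 110685 and 115453 units in Hep_3D libraries, against 120939 and 144472 units in Bil_2D libraries (exact permutation p 0.333). Bil_2D replicate 2 stood highest, and the other 3 libraries lay close together.

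Rpsa, a small subunit protein that also serves as the laminin receptor at the cell surface, was the member called on both scales. It had 654 and 644 TPM in Hep_3D libraries, against 1764 and 1810 TPM in Bil_2D libraries. The groups lay far apart relative to the spread within each. Its log2 fold change was −1.46 ± 0.13 (SE) on the TPM scale (limma adjusted p 0.00517), and it stayed called there when each library was left out (adjusted p 0.0315 to 0.0444). Relative to the median gene it was −0.64 ± 0.14 (limma adjusted p 0.0470). The second call sat at the threshold: the adjusted p was 0.0505 with clone as a replicate block, 0.0538 without a trend in eBayes, 0.111 without the filter on low values, and 0.154 to 0.204 when each library was left out in turn. Rpsa lies at chr9:120127766-120132369 (GRCm38.p6), and its window above holds no pyrimidine run.

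Rps28, a small protein of the small subunit head beside the channel through which messages leave, had 1613 and 1636 TPM in Hep_3D libraries, against 4587 and 5149 TPM in Bil_2D libraries. The groups did not overlap. Its log2 fold change was −1.58 ± 0.16 (SE) in TPM (limma adjusted p 0.00573) and −0.76 ± 0.19 on the median-of-ratios scale, where it just missed the threshold (limma adjusted p 0.0560). It passed there with a filter of 5 TPM (limma adjusted p 0.0404) and without a trend (0.0498). It did not pass with clone as a replicate block (0.0554) or with any 1 library left out (0.145 to 0.227).

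Rplp2, the stalk partner of Rplp1, had 1731 and 1677 TPM in Hep_3D libraries, against 4080 and 4573 TPM in Bil_2D libraries, without overlap. Its log2 fold change was −1.34 in TPM (limma adjusted p 0.00665) and −0.52 on the median-of-ratios scale (limma adjusted p 0.115). Rplp1 and Rplp0, the base of the stalk, had −1.13 and −1.08 on the TPM scale (limma adjusted p 0.0120 and 0.0111), so all 3 stalk genes were called lower on that scale. The call of Rplp1 was lost with any 1 library left out (limma adjusted p 0.0508 to 0.0973) and without the filter on low values (0.163). That of Rplp0 was lost without either Hep_3D library or Bil_2D replicate 2 (0.0439 to 0.0681 over the 4), and that of Rplp2 held (0.0401 to 0.0456). On the median-of-ratios scale they had −0.31 and −0.26, and none of the 3 was called.

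At the other end, Rpl7a, Rpl10, Rps6 and Rps18 were called lower on the TPM scale but lay above 0 relative to the median gene. Each of these calls was lost with any 1 library left out, at a limma adjusted p of 0.0601 to 0.112 for Rpl7a, 0.0717 to 0.138 for Rpl10, 0.0510 to 0.0632 for Rps6 and 0.0567 to 0.102 for Rps18. Those of Rpl7a, Rpl10 and Rps18 were also lost without the filter on low values (0.0732, 0.0942 and 0.0878). Rpl10, which is placed in the last step of large subunit maturation, had 1309.6 and 1653 TPM in Hep_3D libraries, against 2288 and 2761 TPM in Bil_2D libraries. Rps6, the small subunit protein phosphorylated by S6 kinases downstream of mTORC1, had 556 and 527 TPM in Hep_3D libraries, against 891 and 964 TPM in Bil_2D libraries. Neither gene's groups overlapped on the TPM scale. In TPM the log2 fold change was −0.77 for Rpl10 and −0.78 for Rps6 (limma adjusted p 0.0327 and 0.0114). Relative to the median gene it was 0.05 for Rpl10 and 0.04 for Rps6 (limma adjusted p 0.907 and 0.864). Rpl7a, a large subunit protein, had −0.71 and 0.11 on these scales, and Rps18, of the small subunit head, −0.80 and 0.02. Rpl5 and Rpl11, which bind Mdm2 when ribosome assembly is disturbed, were called lower on the TPM scale at −0.81 for Rpl5 and −1.07 for Rpl11 (limma adjusted p 0.0314 and 0.00824). Relative to the median gene Rpl5 had 0.00 and Rpl11 −0.25 (limma adjusted p 0.995 and 0.303). The TPM call of Rpl5 was lost without either Hep_3D library or Bil_2D replicate 2 (limma adjusted p 0.0478 to 0.131 over the 4) and without the filter, and that of Rpl11 without Hep_3D replicate 2 or Bil_2D replicate 2 (0.0384 to 0.0515).

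To ask which members departed from the rest, every gene was centred in each library on the median log2(TPM + 1) of the 79 tested members. After centring, 65 of the 79 lay within 0.25 of 0. By limma 0 members were called in either direction, beside 4.35% of all genes called lower and 16.1% higher (20.5% in all), and 3 had an unadjusted p under 0.05, beside 4559 of the 12336 genes. Departures were partly shared by the clones: 56 of 79 members moved the same way in both, and the r between the clones' centred differences was 0.730 across the 79 genes. That r includes the extreme points of Rpl26, Rpl30 and Rpl39l, whose values are qualified below, and was not computed without them. The largest departures in the same direction in both clones were Rpl26 (−1.03), Rpl39l (0.89), Rpl30 (−0.53), Rps28 (−0.51) and Rpsa (−0.39). With clone as a replicate block, Rpl26 was called lower (limma adjusted p 0.0206) and Rpl39l higher (limma adjusted p 0.0338). Rpl39l lies near the floor, where centring alone raises the value. A gene at 0 TPM in all libraries gets 0.94 in clone 15C7 and 1.21 in clone 19H5. Without Hep_3D replicate 1, Rpl26 alone was called (limma adjusted p 0.00546).

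**Figure D4:**
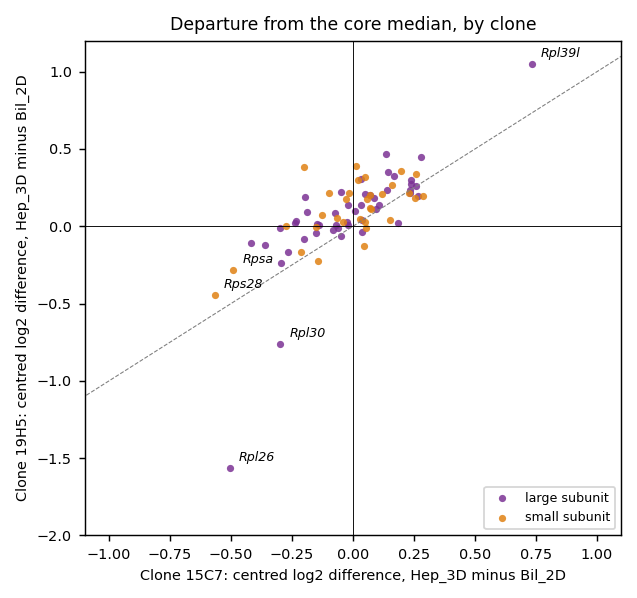
Centred log2 difference, Hep_3D minus Bil_2D, of the 79 tested members in clone 15C7 (x axis) and clone 19H5 (y axis), 1 point per gene, coloured by subunit, with the line of equal values dashed. Of the 79 points 75 lie within 0.5 of 0 on both axes, and the other 4, Rpl26, Rpl30, Rps28 and Rpl39l, lie beyond it in at least 1 clone with the same sign in both.

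Rpl26 and Rpl30, large subunit proteins with the lowest fold changes of all members, were also low in level for ribosomal protein genes. Rpl26 had 78.6 and 53.6 TPM in Hep_3D libraries, against 216 and 372 TPM in Bil_2D libraries. Rpl30 had 119 and 65.8 TPM in Hep_3D libraries, against 281 and 261 TPM in Bil_2D libraries. Both were lower in Hep_3D without overlap, and both were called in TPM, at −2.11 ± 0.34 for Rpl26 and −1.61 ± 0.31 for Rpl30 (SE; limma adjusted p 0.0108 and 0.0154). The call of Rpl26 was lost without Hep_3D replicate 2 (limma adjusted p 0.0398 to 0.0566 over the 4 libraries left out) and that of Rpl30 without either Bil_2D library (0.0291 to 0.0795). Neither was called relative to the median gene, at −1.30 for Rpl26 and −0.79 for Rpl30 (limma adjusted p 0.0720 and 0.129).

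Each of these genes has a near-identical entry elsewhere in the table that held most of the TPM. Of the stretches of 31 bases in the Rpl26 transcript, 69.8% also occur in Gm15772, a transcribed pseudogene at chr5:3236390-3236928, which had 1072 and 1143 TPM in Hep_3D libraries, against 1717 and 1957 TPM in Bil_2D libraries. For Rpl30 the share was 53.2% and the entry was Gm12191, a transcribed pseudogene at chr11:49678620-49679143, with 2131 and 1708 TPM in Hep_3D libraries, against 3672 and 3485 TPM in Bil_2D libraries. Both entries were lower in Hep_3D without overlap, and both stood well above the parent gene in every library. How the reads were divided between a gene and such an entry cannot be seen in TPM, so the level of Rpl26 or Rpl30 taken alone is uncertain. Summed with its entry, Rpl26 had 1150.2 and 1196 TPM in Hep_3D libraries, against 1933 and 2329 TPM in Bil_2D libraries. Its log2 fold change became −0.85 on the TPM scale (limma adjusted p 0.0153), −0.04 on the median-of-ratios scale (limma adjusted p 0.907) and 0.12 after centring. For Rpl30 the summed values were −0.95 (limma adjusted p 0.0170), −0.13 (limma adjusted p 0.665) and 0.03. Neither sum departed from the members. Each sum consists mostly of the pseudogene entry, which alone had 0.09 for Gm15772 and −0.09 for Gm12191 on the median-of-ratios scale. The sums therefore cannot show whether Rpl26 or Rpl30 itself departed.

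Rpl34 and Rps27 had the same arrangement. Rpl34 had 243 and 257 TPM in Hep_3D libraries, against 518 and 588 TPM in Bil_2D libraries, while Rpl34-ps1 on chromosome 6, which holds 58.2% of its stretches, had 1093 and 1139 TPM in Hep_3D libraries, against 2065 and 2281 TPM in Bil_2D libraries. Rps27 had 375 and 469 TPM in Hep_3D libraries, against 829 and 830 TPM in Bil_2D libraries, while Rps27rt on chromosome 9, which holds 98.7% of its stretches, had 2262 and 2408 TPM in Hep_3D libraries, against 4049 and 3960 TPM in Bil_2D libraries. In all 4 families the second entry held more TPM than the named gene in every library. Summed on the median-of-ratios scale, the log2 fold change was −0.18 for Rpl34 and 0.01 for Rps27. Altogether 14 members had an entry in the table that alone shared at least 25% of their stretches. For 2 of them, Rpl32 and Rpl32l, that entry was the other member, and they were not summed. With the other 12 summed, 77 members were called lower in TPM, 1 relative to the median gene and 0 after centring, the same counts as without. This count leaves out Rpl29, with 41.6% of its stretches in other entries of the table, none holding 25% alone. It also leaves out genes absent from the table. Over all annotated transcripts, other genes held 54.7% of the stretches of Rpsa and 80.5% of those of Rps28. Within the table the share was 0% for both. The effect of such sequences on TPM was not tested.

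**Figure D5:**
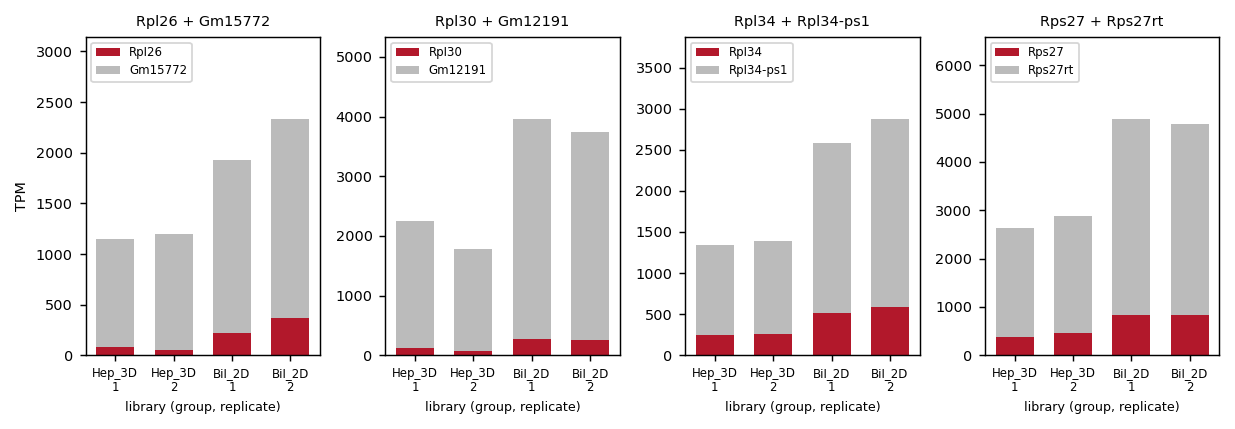
TPM of 4 members (red) stacked with that of their near-identical entry (grey) in each library, the 2 Hep_3D libraries left of the 2 Bil_2D libraries. The grey part is the larger in all 16 bars, and the stacked heights are lower in Hep_3D in all 4 families.

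Several ribosomal protein genes have a paralog, whose product can in some cases replace the usual one. For 8 pairs, 1 of which (Rps4l with Rps4x) has a transcribed pseudogene as the paralog, the ratio within a library, on TPM + 1, does not depend on scaling for well expressed genes. The exact permutation p was at least 0.333 for every pair, and 0.533 or more after adjustment over the 8, so none could pass with 2 libraries a group. The clearest separation was that of Rpl36al, an autosomal gene whose protein is nearly identical to that of the X-linked Rpl36a. Rpl36al is outside the symbol rule. It had 927 and 1009 TPM in Hep_3D libraries, against 957 and 1258 TPM in Bil_2D libraries, while Rpl36a had 1063 and 1196 TPM in Hep_3D libraries, against 1731 and 2241 TPM in Bil_2D libraries. Rpl36al overlapped between groups and Rpl36a did not. Rpl36al therefore held 46.6% and 45.8% of the pair in Hep_3D libraries, against 35.6% and 36.0% in Bil_2D libraries, higher in Hep_3D in both clones. The 2 transcripts shared no stretch of 31 bases, though 87.6% of the stretches of Rpl36a occur in some other annotated gene. Rpl36a was called lower on the TPM scale at −0.80 (limma adjusted p 0.0264), though not with any 1 library left out (0.0518 to 0.119) or without the filter (0.0701), and Rpl36al was not called on that scale, at −0.18 (limma adjusted p 0.445), or on the median-of-ratios scale, at 0.64 (limma adjusted p 0.112).

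Rpl22l1, which Rpl22 represses and which can take its place in the ribosome, exceeded Rpl22 in every library. Rpl22l1 had 229 and 371 TPM in Hep_3D libraries, against 642 and 987 TPM in Bil_2D libraries, and Rpl22 had 78.6 and 80.2 TPM in Hep_3D libraries, against 143 and 164 TPM in Bil_2D libraries. Both were lower in Hep_3D without overlap, at a log2 fold change of −1.45 for Rpl22l1 and −0.94 for Rpl22 in TPM (limma adjusted p 0.0246 and 0.00831). The call of Rpl22l1 was lost without Hep_3D replicate 1 (limma adjusted p 0.0901), Bil_2D replicate 1 (0.0553) or Bil_2D replicate 2 (0.0969), and that of Rpl22 without Bil_2D replicate 2 (0.0517). The ratio of Rpl22l1 to Rpl22 was 2.89 and 4.58 in Hep_3D libraries, against 4.47 and 5.99 in Bil_2D libraries, which overlapped, and it was higher in clone 19H5 within each state. Rpl22l1 was not called on the median-of-ratios scale (log2 fold change −0.63, limma adjusted p 0.281) but was with clone as a replicate block (limma adjusted p 0.0423).

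Rps27l, a p53 target related to Rps27, had 774 and 752 TPM in Hep_3D libraries, against 1621 and 1656 TPM in Bil_2D libraries. Its ratio to Rps27 was 2.06 and 1.60 in Hep_3D libraries, against 1.95 and 1.99 in Bil_2D libraries, which overlapped. That ratio leaves out Rps27rt and would be under 1 with it in every library, since Rps27rt alone exceeded Rps27l. Rpl7l1, related to Rpl7, stood at 0.0672 and 0.0696 of Rpl7 in Hep_3D libraries, against 0.0576 and 0.0588 in Bil_2D libraries, without overlap. Rps4l stood at 0.0533 and 0.129 of Rps4x in Hep_3D libraries, against 0.0668 and 0.132 in Bil_2D libraries, where the clones and not the states were apart.

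The paralogs known for male germ cells or striated muscle were at or near 0. Rpl10l, a testis gene, was listed at 0 in all 4 libraries. Rpl3l, known from heart and skeletal muscle, was listed at 0.0950 and 0 TPM in Hep_3D libraries, against 0.0726 and 0 TPM in Bil_2D libraries. Rpl32l was listed at 0 and 0.200 TPM in Hep_3D libraries and at 0 in both Bil_2D libraries. A value of exactly 0 may also be an estimate that failed, and no fold is given for these 3. Rpl39l, a further male germ cell paralog, was just above the filter, with 2.45 and 2.06 TPM in Hep_3D libraries, against 2.98 and 2.41 TPM in Bil_2D libraries. These ranges overlapped, and it was not called in TPM (log2 fold change −0.18, limma adjusted p 0.502) or relative to the median gene (0.40, limma adjusted p 0.228). At this level the pseudocount of 1 shrinks a fold change towards 0. Centring on members that were lower in Hep_3D then raises its value. Neither that value nor its call with clone as a replicate block measures a change of Rpl39l itself.

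Compared between clones with cell state as a term, 0 members and 0 of all 12336 genes passed (limma, 0% called in either direction; 3 members and 1599 genes had an unadjusted p under 0.05). The members' median log2 difference, 15C7 minus 19H5, was −0.11, beside 0.07 over all genes. The members' median was −0.19 within Bil_2D and −0.03 within Hep_3D, beside 0.07 and 0.06 over all genes. Of the 79 members, 73 were lower in 15C7 within Bil_2D and 46 within Hep_3D. The shares of all genes in each state are not given here. Each of these counts compares 1 library with 1 other, and a shift of a library can move all members together. In both states 45 of 79 were lower in 15C7, beside 22.9% of all genes. The 3 members with an unadjusted p under 0.05 were Rps4l, Rps7 and Rpl21. Rps4l had 33.9 TPM in clone 15C7 and 84.9 TPM in clone 19H5 within Hep_3D, and 80.2 and 197 TPM within Bil_2D, a log2 difference of −1.29 (limma adjusted p 0.188). Within each clone Rps4l was lower in Hep_3D, and it was called lower on the TPM scale with clone as a replicate block (limma adjusted p 0.00926) though not without it (0.163). Rps7, another Mdm2-binding protein, had 450.5 TPM in clone 15C7 and 628 TPM in clone 19H5 within Hep_3D, and 836 and 1164 TPM within Bil_2D, a log2 difference of −0.48 (limma adjusted p 0.327).

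Of 7 ribosomal protein genes in the table whose symbols fall outside the rule, 6 were called lower in TPM and 0 relative to the median gene, with medians of −0.86 and −0.04. Over all genes 51.9% and 9.54% were called lower on these scales. The 6 became 2 without either Hep_3D library, 1 without Bil_2D replicate 1 and 0 without Bil_2D replicate 2. With clone as a replicate block 1 was called relative to the median gene. Fau, the source of the small subunit protein S30, had 1158 and 1471 TPM in Hep_3D libraries, against 2234 and 2885 TPM in Bil_2D libraries. Its groups did not overlap. Rps3a1 had −0.96 in TPM and −0.14 relative to the median gene (limma adjusted p 0.00825 and 0.553).

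The genes that assemble ribosomes had a lower median than the genes of their proteins. As background for the counts that follow, limma on TPM called 51.9% of all genes lower and 6.8% higher. Relative to the median gene it called 9.54% of them lower and 11.9% higher. Of 49 ribosome biogenesis and nucleolar factors tested, 47 were lower in Hep_3D and 1 was higher on the TPM scale, with a median of −1.34. On the median-of-ratios scale 16 were lower and 1 was higher, with a median of −0.58, beside −0.20 for the ribosomal proteins and −0.02 for all genes; the difference between these lists was not tested, and the 16 became 0 when any 1 library was left out. In TPM the 47 became 46 and 41 without Hep_3D replicates 1 and 2, and 28 and 29 without Bil_2D replicates 1 and 2. Nop2, a nucleolar RNA methyltransferase of the large subunit, had 19.5 and 17.4 TPM in Hep_3D libraries, against 71.0 and 70.3 TPM in Bil_2D libraries. Its groups did not overlap, and its log2 fold change was −1.09 ± 0.13 (SE) on the median-of-ratios scale (limma adjusted p 0.0143). Nolc1, a nucleolar phosphoprotein, and Grwd1, a ribosome assembly factor, had −1.04 and −0.99 on that scale (limma adjusted p 0.0349 and 0.0231). Rcl1, required for cleavage of the small subunit RNA precursor, was the exception, with 107 and 98.97 TPM in Hep_3D libraries, against 73.4 and 54.5 TPM in Bil_2D libraries, and a log2 fold change of 1.503 on the median-of-ratios scale (limma adjusted p 0.0126).

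The medians of initiation factors, elongation factors and RNA polymerase I and III genes lay nearer to those of the ribosomal proteins. Those of the mitochondrial ribosomal proteins did not. The counts of these 4 lists stand beside 51.9% of all genes called lower and 6.8% higher in TPM. Relative to the median gene the shares were 9.54% and 11.9%. Of 37 initiation factors 35 were lower in TPM and 2, Eif4a1 and Eif3d, relative to the median gene, with medians of −1.03 and −0.22 (4 with clone as a replicate block on the second scale). Of 21 elongation factors and ribosome-associated chaperones 20 were lower on the first and 2, Eef1e1 and Dnajc2, on the second, with medians of −1.15 and −0.33. Of 29 RNA polymerase I and III genes 24 were lower in TPM, with a median of −1.07. Relative to the median gene 2, Gtf3a and Taf1d, were lower and 1 was higher, with a median of −0.29. The 78 mitochondrial ribosomal proteins, which serve the separate ribosome of that organelle, had 62 lower in TPM. Relative to the median gene 0 of them were lower and 3 higher. Their medians of −0.72 and 0.08 lay near those over all genes, −0.73 and −0.02. The 3 were Mrpl2, Mrpl50 and Mrps31. In these 4 lists the calls relative to the median gene were 0 with any 1 library left out. Leaving out Hep_3D replicate 1, Hep_3D replicate 2, Bil_2D replicate 1 and Bil_2D replicate 2 in turn left 32, 30, 21 and 20 initiation factors called lower in TPM, 14, 14, 15 and 11 elongation genes, 17, 14, 9 and 5 polymerase genes, and 25, 26, 9 and 13 mitochondrial genes.

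Among regulators of TOP messages and of ribosome production, 16 of 30 genes tested were lower and 2 higher in Hep_3D in TPM, and 2 lower and 3 higher relative to the median gene. Over all genes 51.9% were lower and 6.8% higher in TPM, and 9.54% lower and 11.9% higher relative to the median gene. The counts of this list in TPM were near the shares of all genes. With libraries left out in the same order, 10, 8, 5 and 3 were lower and 1, 1, 2 and 1 higher in TPM, and 1, 1, 0 and 0 lower and 1 higher each relative to the median gene. With clone as a replicate block 1 was lower relative to the median gene. Myc, a transcription factor that drives ribosomal protein and biogenesis genes, had 9.44 and 11.1 TPM in Hep_3D libraries, against 73.2 and 75.1 TPM in Bil_2D libraries. Eif4ebp3, a repressor of cap-dependent initiation, had 127 and 155 TPM in Hep_3D libraries, against 8.89 and 9.22 TPM in Bil_2D libraries. Neither gene's groups overlapped. On the median-of-ratios scale the log2 fold changes were −1.96 ± 0.16 for Myc and 4.58 ± 0.17 for Eif4ebp3 (SE; limma adjusted p 0.00686 and 0.00163). Deptor, an inhibitor that binds mTOR, was higher at 1.96 (limma adjusted p 0.0120) and Tia1, an RNA-binding protein of TOP messages, lower at −0.75 (limma adjusted p 0.0458). Larp1 itself had 37.8 and 37.4 TPM in Hep_3D libraries, against 50.7 and 51.7 TPM in Bil_2D libraries, called lower on the TPM scale (−0.43, limma adjusted p 0.0382) and not called on the median-of-ratios scale (0.36, limma adjusted p 0.110), where its sign was the opposite.

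Of 15 genes of ribosomal stress and surveillance, 14 were lower in TPM and 3 relative to the median gene, beside 51.9% and 9.54% of all genes. In the same order of libraries left out the 14 and 3 became 8, 7, 6 and 5 in TPM, and 1, 1, 0 and 0 relative to the median gene. Those 3 were Trp53, the gene of p53, its ubiquitin ligase Mdm2, which ribosomal proteins bind, and the stress granule gene G3bp1. Trp53 had 27.2 and 25.1 TPM in Hep_3D libraries, against 134 and 131 TPM in Bil_2D libraries, and Mdm2 had 34.5 and 31.7 TPM in Hep_3D libraries, against 109 and 107 TPM in Bil_2D libraries. The groups lay well apart for both, and relative to the median gene Trp53 had −1.497 and Mdm2 −0.88 (log2 fold change, limma adjusted p 0.00665 and 0.0180). Proliferation moved with the same groups: of 25 cell cycle markers 25 were lower in Hep_3D in TPM and 18 relative to the median gene, with medians of −3.18 and −2.45. In the same order these became 25, 25, 9 and 6 in TPM, and 20, 8, 0 and 0 relative to the median gene. The 25 summed to 299 and 141 TPM in Hep_3D libraries, against 1649 and 1901 TPM in Bil_2D libraries. The part of cell cycle activity, or of hepatocyte marker level, in the values of the ribosomal protein genes was not tested.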

How the data were processed

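RNA sequencing of total RNA from 4 mouse cultures was deposited as TPM per gene symbol. The authors deposited TPM values without counts, so library depth and counting error are unknown, and no count model was used. Salmon, DESeq2 and mm10 are named, without versions or roles, in the submitters' processing notes; the transcript annotation is not given in the sources used here.

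The test of Hep_3D against Bil_2D used limma 3.58.1 (lmFit, eBayes with trend; R 4.3.3) on log2(TPM + 1) for the 12336 genes that reached 1 TPM in 2 or more libraries, with Benjamini-Hochberg adjustment over all genes and a threshold of 0.05. There were 2 residual degrees of freedom. The pseudocount of 1 understates changes of low genes. Median-of-ratios factors used the 10434 genes that reached 1 TPM in all 4. Single values per library were compared by two-sided exact permutation tests (SciPy 1.17.1). The fit was tested on simulated data.

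Libraries of the same replicate number are the same clone per the labels, so the numbers pair them. Deviations from group means correlated at 0.414 across all genes and at 0.605 across the members. Start windows come from RefSeq (GRCm38.p6), and stretches of 31 bases from GENCODE M21 transcripts.

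Named members were the 10 most abundant, the 5 highest and 5 lowest fold changes on the median-of-ratios scale, the 5 largest shared departures, paralog pairs, members listed at 0 and the 5 largest clone differences. For other lists up to 4 genes called on both scales were named. Rplp0, Rpl11, Larp1, the mitochondrial genes, Fau and the near-identical entries were named outside that rule or after their values were seen. Members and lists were chosen with earlier results of these data known. Alternatives were other scalings, pseudocounts, filters, eBayes settings, a replicate block and leaving out each library. Summing near-identical entries was chosen after seeing the data. A few single genes are not reported here, though counts over lists include them.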

Additional observations from a re-analysis of the deposited data

Results flagged for a closer look

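On the median-of-ratios scale the Hep_3D minus Bil_2D difference had opposite signs in the 2 clones for 18 of the 79 tested members, all 18 positive in clone 15C7. Among the members named by rule, 5 are given here with 1 ratio. Each clone has 1 library per state, and the difference between clones was not tested. The share of all genes with opposite signs is not given here. The log2 differences in 15C7 and 19H5 were 0.125 and −0.0990 for Rpl36a and 0.0732 and −0.381 for Rpl41. They were 0.147 and −0.142 for Rpl5, 0.0853 and −0.0455 for Rps18, and 0.148 and −0.0666 for Rps6. For the log2 ratio of Rps27l to Rps27 they were 0.0766 and −0.314. All 6 had a positive difference in clone 15C7 and a negative one in clone 19H5, beside medians over all members of −0.09 in 15C7 and −0.29 in 19H5.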

How the results depend on the processing

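The 77 members called lower on the TPM scale became 1 on the median-of-ratios scale, 1 with factors computed without ribosomal protein genes, 0 on that scale with clone as replicate block, 44 after quantile normalization and 9 without the 50 most abundant other genes. Leaving out a library gave 18 to 55. The replicate block on the TPM scale gave 78. On the median-of-ratios scale the 1 call became 0 with the block, 2 with a filter of 5 TPM, 0 without a filter and 0 with any library left out. After centring the block gave 1 lower and 1 higher, and leaving out a library 0 to 1 lower. Over the 294 genes of the other lists, calls lower went to 45 and calls higher to 8 on the median-of-ratios scale, and to 92 to 179 and 1 to 2 with a library left out. In single lists on that scale the block moved calls lower to 4 initiation factors, 1 regulator of TOP messages and 1 gene outside the symbol rule. It moved no other count given in the text by over 1.5 times.

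The sign turned on the median-of-ratios scale, with or without the block, for Rpl10 (0.0451; 0.0417 with factors without ribosomal protein genes), Rpl36a (0.0132; 0.00974), Rpl36al (0.635; 0.632), Rpl39l (0.400; 0.397), Rpl7a (0.107; 0.103), Rpl7l1 (0.10; 0.0966), Rps18 (0.0199; 0.0164) and Rps6 (0.0406; 0.0372). Rpl5 lay at 0, with 0.00269 on that scale and −0.000748 with the second factors. Quantile normalization gave 0.218 for Rpl36al and 0.320 for Rpl39l, and leaving out the 50 genes 0.472 and 0.312. With a library left out the median-of-ratios value ran from −0.149 to 0.239 for Rpl10, −0.264 to 0.00704 for Rpl22, −0.211 to 0.237 for Rpl36a, −0.269 to 0.274 for Rpl5, −0.315 to 0.00734 for Rpl41, −0.0534 to 0.267 for Rpl7a, −0.138 to 0.177 for Rps18, −0.353 to 0.0202 for Rps27, −1.08 to 0.274 for Rps4l and −0.0543 to 0.135 for Rps6. On the TPM scale Rpl36al ran from −0.379 to 0.0152. The log2 large to small subunit difference ran from −0.0415 to 0.0146, that of Rps27l to Rps27 from −0.299 to 0.0620 and that of Rps4l to Rps4x from −0.814 to 0.460. Summing near-identical entries gave 0.00631 for Rps27 on the median-of-ratios scale, and 0.125 for Rpl26 and 0.0337 for Rpl30 after centring. The cause of these changes was not tested, other than that leaving out a library leaves 1 sample in a group, taken to vary like the other. Unknown depth and 2 libraries a group limit every comparison.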
